A study of Mus musculus with 19 samples.

Results

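The 3 uncoupling protein genes of the mouse, Ucp1, Ucp2 and Ucp3, were taken by their gene symbols from an expression table of 20554 genes, and all 3 were listed and tested in every comparison. RNA had been sequenced from brown adipose tissue (BAT) lying between the shoulder blades of wild-type male C57BL6J mice, with as many libraries as mice. Young mice were 3 months old (5 at 4°C, 5 at 24°C) and old mice 24 months old (4 at 4°C, 5 at 24°C), and the 24°C groups are called room temperature here. All 19 mice were caged alone without food or bedding, and no group carried a transgene or received an agent. The treatment protocol gives 5 h of exposure, as the paper does for its RNA comparison, while the design text gives 24 h. The labels by themselves thus leave the time in the cold not settled. The comparisons asked how the cold changed the 3 genes at each age, how age changed them at each temperature, and whether the cold effect differed with age.

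Uncoupling proteins are carriers of the inner mitochondrial membrane that belong to the SLC25 family. Ucp1 is the hallmark of brown and beige fat: activated by fatty acids, it lets protons flow back into the matrix without ATP being made, so that fuel oxidation ends as heat. Noradrenaline released in the cold acts through β-adrenergic receptors, cAMP and lipolysis, which both opens this leak and raises transcription of the gene. Ucp2 is found in many tissues and in immune cells, and Ucp3 mainly in skeletal muscle and brown fat. Despite their names, neither is established as a source of heat, and Ucp3 is usually discussed with the handling of fatty acids.

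The 3 genes sit at 2 places in the genome (GRCm38, GENCODE M21, all on the plus strand). Ucp1 (ENSMUSG00000031710) lies on chromosome 8 from 83290352 to 83298452 with 6 exons and no overlapping gene. Ucp3 (ENSMUSG00000032942; chromosome 7, 100472990 to 100486432) and Ucp2 (ENSMUSG00000033685; chromosome 7, 100493337 to 100502020) are neighbours, with 6.91 kb between the end of Ucp3 and the start of Ucp2. Ucp2 overlaps Dnajb13 and Ucp3 overlaps Gm10603 in that annotation, and whether reads were counted by strand is not given in the sources used here.

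The 250 bases before each gene's start are shown because the balance among the 3 transcripts shifted with cold. They come from the RefSeq promoter table on GRCm38.p6, in which all 3 symbols were matched, and read 5′ to 3′ on the plus strand. Capitals mark the letters of 3 short motifs that were searched on both strands: TGACG, the core of a cAMP response element, AGGTCA, the core of a nuclear receptor site, and the TATA box in the form TATANA. Matches of the last may overlap each other. The windows are chr8:83290098-83290347 for Ucp1, chr7:100493108-100493357 for Ucp2 and chr7:100472741-100472990 for Ucp3.
Ucp1: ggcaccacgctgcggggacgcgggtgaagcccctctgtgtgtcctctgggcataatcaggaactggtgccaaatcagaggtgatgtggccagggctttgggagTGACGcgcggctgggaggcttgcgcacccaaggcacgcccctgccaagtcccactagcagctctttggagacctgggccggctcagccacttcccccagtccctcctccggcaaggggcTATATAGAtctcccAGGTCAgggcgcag
Ucp2: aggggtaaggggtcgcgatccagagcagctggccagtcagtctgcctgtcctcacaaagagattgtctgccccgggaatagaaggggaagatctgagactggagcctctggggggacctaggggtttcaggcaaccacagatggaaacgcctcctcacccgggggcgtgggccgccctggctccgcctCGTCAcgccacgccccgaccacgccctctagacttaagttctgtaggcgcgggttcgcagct
Ucp3: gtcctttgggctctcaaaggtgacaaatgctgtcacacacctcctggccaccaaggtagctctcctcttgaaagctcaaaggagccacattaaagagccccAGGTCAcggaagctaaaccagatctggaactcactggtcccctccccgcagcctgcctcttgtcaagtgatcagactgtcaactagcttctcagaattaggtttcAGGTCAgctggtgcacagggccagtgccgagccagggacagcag
Positions count back from the start in the RefSeq promoter table, where each window ends. The Ucp1 window held TGACG, with its first base 147 bases before the start, a TATA box beginning 28 bases before the start and AGGTCA beginning 14 bases before it. In the Ucp2 window the search found TGACG on the minus strand (CGTCA, 62 bases before the start) and neither of the other motifs. The Ucp3 window had AGGTCA 149 and 44 bases before the start and neither of the others. Of 32851 promoters of the same length in that table, 17.8% held TGACG, 14.0% AGGTCA and 22.6% a TATA match on either strand, so each motif alone is common. The windows also differed in CG dinucleotides, with 12 in Ucp1, 16 in Ucp2 and 3 in Ucp3, against a median of 6 over all promoters. The Ucp2 window runs past the gene start given above into the first exon. That start, 100493337, is the same in GENCODE and in the RefSeq gene record. The Ucp2 motif thus lies nearer to it than 62 bases. These matches are letters in a sequence, and no binding was measured.

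The deposited values are log2 of TPM plus 1, where TPM (a transcript count per gene length, scaled to the library) is the unit. Levels are given below as TPM and differences on the log2(TPM + 1) scale, in which changes of genes near 1 TPM, such as Ucp2, come out smaller than in TPM. Stepping through the low values gave whole reads for 16951 of 16957 detected genes (within 0.005 of a whole number in each library, with gene lengths up to 30000 bases tried). These genes held 879006 to 12000795 reads per library, and reads of genes not listed are not in these totals. Genes above 0 in few libraries find such a length easily, so the number solved is no check by itself. Of 7035 annotated genes with at least 1000 reads over the libraries together, 47.0% had a length equal to the union of their GENCODE exons. The totals are therefore approximate. Reads came out whole for Ucp1 at a length of 1644 bases, its RefSeq mRNA, but for Ucp2 at 6989 bases, the union of all exons of its 11 annotated transcripts, where the RefSeq mRNA has 1597 bases. The TPM of Ucp2 are thereby 4.38 times lower than they would be per mRNA, and those of Ucp3 (3135 bases against 2448) 1.28 times lower. Each factor is the same in every library and cancels when the TPM of 1 gene are compared between libraries as a ratio. It does not cancel in a ratio of 2 genes within a library, such as Ucp1/Ucp2, whose size rests on the counted lengths. Differences of such log2 ratios between groups are not changed by it. On the log2(TPM + 1) scale, however, the low level of Ucp2 makes its differences smaller. With a pseudocount of 0.1 TPM in place of 1, its +0.33 with cold in young mice became +0.53 and its +0.44 with age at room temperature +0.70. In each of the 19 libraries 9 brown adipocyte markers summed to 2164 to 3596 TPM, with 8 or 9 of them above 0. This sum does not tell how much other tissue the pieces held, and muscle markers are given below. In 4 libraries the predicted gene Gm20594 was at 2391 to 2504 TPM, against 33784 to 72030 TPM in the other 15. They were young room temperature replicate 2 (the sole library with a paired-end label), old room temperature replicate 1 and old cold replicates 1 and 2. Where leaving these libraries out ended a call or moved a value for a gene named here by over 1.5 times, that value is given too. RNA of whole tissue was measured, so fewer cells of a type and less RNA per cell cannot be told apart.

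Ucp1, the heat-producing carrier, was among the most abundant of the listed genes in every library, and cold more than doubled it in young mice. It stood at 4615, 4480, 5234, 4789 and 4536 TPM in the 5 young cold libraries and at 1948, 2086, 1380, 1563 and 2698 TPM in the 5 young room temperature libraries. Every cold library lay above every room temperature library, and the cold libraries were close to each other (mean 4731 ± 304 TPM, SD, n = 5) while the room temperature libraries were more spread (1935 ± 513, n = 5). Such a separation upward was seen in 7.43% of the 16501 genes tested. The difference was +1.33 on the log2 scale (SE 0.16, adjusted p = 0.000417, limma with Benjamini-Hochberg adjustment), which is 2.51-fold with a 95% interval of 1.95 to 3.23, and at an adjusted p under 0.05 9.61% of all genes were called higher and 16.3% lower. The call held under all alternatives that were run, and quantile normalization gave the smallest difference (+0.55, adjusted p = 0.0420). As a share of the summed TPM of all listed genes, Ucp1 made up 2.18% to 2.95% in young cold libraries and 0.858% to 1.44% at room temperature, where it ranked 4th or 5th of the listed genes.

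In old mice Ucp1 was also higher in the cold, without overlap, but the old cold libraries fell into a high and a low pair and the adjusted p missed 0.05. The 4 cold libraries were at 5387, 5452, 2520 and 3260 TPM and the 5 room temperature libraries at 2033, 2178, 938, 1853 and 2091 TPM. The lowest cold library (2520 TPM) was thus just above the highest at room temperature (2178 TPM). No overlap in this direction was found for 0.897% of the 15833 genes tested. The difference was +1.18 (SE 0.33, 2.26-fold, 95% interval 1.34 to 3.81) with an adjusted p of 0.292, and for the single gene the exact two-sided permutation p was 0.00794, the smallest that 4 against 5 libraries can give. The adjusted p also missed the looser threshold of 0.25, at which 0.512% of genes were called higher and 0.922% lower. In this comparison limma called 3 genes higher (0.0189%) and 1 lower (0.00632%), with 1378 genes at an unadjusted p under 0.05. The 2 highest cold libraries were those low in Gm20594, and without the libraries low in that gene the difference was +0.77 (adjusted p = 0.333). Ucp1 was called when genes averaging under 1 TPM were dropped (adjusted p = 0.0471), after median centring (+1.30, 0.00944), with library weights (+1.33, 0.0285) and with all 19 libraries in a joint fit (0.0244).

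Age by itself left Ucp1 within the spread of the libraries. Mean levels were 1819 ± 507 TPM in old and 1935 ± 513 TPM in young mice at room temperature (n = 5 each), a difference of -0.11 (95% interval -0.70 to 0.48, adjusted p = 0.976). In the cold they were 4155 ± 1492 TPM in old (n = 4) and 4731 ± 304 TPM in young mice (n = 5), a difference of -0.26 (-0.80 to 0.27, adjusted p = 0.999). Of the old cold libraries, 2 lay above and 2 below all young cold libraries. With low Gm20594 as a covariate this difference became -0.72 with an adjusted p of 0.0329, and -0.72 with an adjusted p of 0.0557 when those libraries were left out, which leaves 2 old cold libraries. No young cold library was low in Gm20594, so both fits set the same 2 old cold libraries against the young ones. Of 16134 genes tested, 330 were called lower and 4 higher with the covariate, and the median difference was -0.15. With those libraries left out, 82 of 15999 were called lower and 4 higher. The cold effect in old mice minus that in young mice was -0.15 (SE 0.37, 95% interval -0.93 to 0.63, adjusted p = 0.998), and -0.59 (adjusted p = 0.452) without the libraries low in Gm20594 or -0.40 (0.772) with that as a covariate. Among all genes, the age comparisons gave 0 calls at room temperature (1268 at an unadjusted p under 0.05; at 0.25, 0.536% higher and 0.179% lower), 3 in the cold (0.0062% higher, 0.0124% lower) and 2 for the interaction (0.0118%, both lower). The groups thus ranked, by mean TPM, young cold, old cold, young room temperature and old room temperature, and the neighbours that differ only in age were not told apart.

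**Figure D1:**
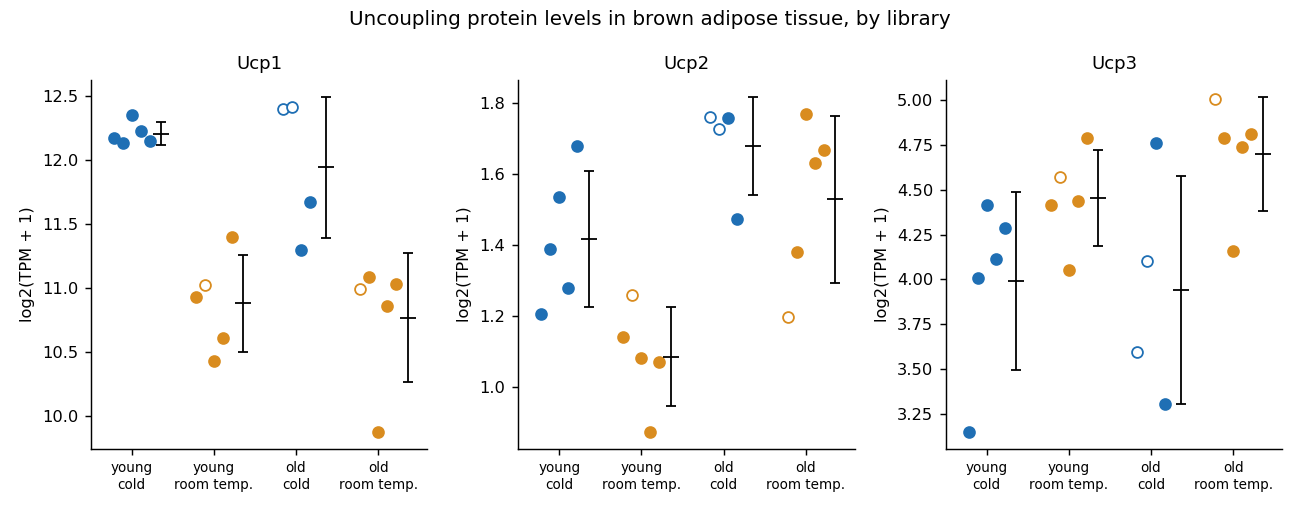
Levels of Ucp1, Ucp2 and Ucp3 on the deposited log2(TPM + 1) scale (vertical axes, each with its own range) in the 19 libraries by group. Each point is a library, open points mark the 4 libraries low in Gm20594, and the bar beside each group gives the mean and SD. Within each age the blue points (cold) of Ucp1 lie above the orange points (room temperature), whereas the groups of Ucp2 and Ucp3 overlap.

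Ucp3, the form known from muscle and brown fat, was 55.6 to 586 times less abundant than Ucp1 in TPM per counted length. Its mean was lower in the cold at both ages without passing the test. Its levels were 7.88, 15.1, 20.3, 16.3 and 18.5 TPM in young cold and 20.3, 22.7, 15.6, 20.7 and 26.6 TPM in young room temperature libraries. Here 2 of 5 cold libraries lay below all room temperature libraries and the rest overlapped. The difference of -0.46 (95% interval -0.99 to 0.07) had an adjusted p of 0.200, which would pass only at the looser threshold of 0.25, where 28.1% of all genes were called lower. Without cold replicate 1, the lowest library, it was -0.25 (adjusted p = 0.277).
In old mice the cold libraries stood at 11.1, 16.2, 26.1 and 8.90 TPM and the room temperature libraries at 31.1, 26.6, 16.9, 25.6 and 27.1 TPM. Here 3 of 4 cold libraries lay below all at room temperature, and the fourth, replicate 3, was among the room temperature values. The difference was -0.76 (95% interval -1.45 to -0.07, unadjusted p = 0.0352, adjusted p = 0.525, limma), and the exact two-sided permutation p of the single gene was 0.0556. The age differences were +0.25 at room temperature (-0.14 to 0.64, adjusted p = 0.829) and -0.05 in the cold (-0.86 to 0.76, adjusted p = 0.999), and the difference between the cold effects was -0.30 (-1.13 to 0.53, adjusted p = 0.998), or -0.16 without the libraries low in Gm20594. Without them the age difference in the cold was +0.041. By mean TPM the order was old room temperature (25.5), young room temperature (21.2), young cold (15.61) and old cold (15.57), and no neighbours in it differed by the test.

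Since skeletal muscle carries Ucp3, its markers are given beside these values. The sum of 10 muscle markers ranged from 32.4 to 1335 TPM in young cold, 15.1 to 341 in young room temperature, 9.88 to 304 in old cold and 14.7 to 220 in old room temperature libraries, and none of the 10 was called in any comparison. Their median difference with cold was +1.71 in young and +1.26 in old mice, opposite in sign to that of Ucp3, and +1.05 and +0.87 without the libraries low in Gm20594. Between 2 and 10 of them were above 0 in a library, and none was at 0 throughout a group. The young cold library with the highest sum (1335 TPM) had the highest Ucp3 of its group (20.3 TPM), while the one with the next highest sum (485 TPM) had the lowest Ucp3 (7.88 TPM). In the old room temperature group the library with the most Ucp3 (31.1 TPM) had the lowest muscle sum (14.7 TPM). The part of muscle RNA in the Ucp3 values was not tested further.

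Ucp2, the broadly expressed form, was the lowest of the family in all 19 libraries and rose slightly with cold in young mice. It was at 1.31, 1.62, 1.90, 1.42 and 2.20 TPM in young cold and at 1.20, 1.39, 1.12, 0.83 and 1.10 TPM in young room temperature libraries. Per RefSeq mRNA instead of per counted length, the values over all libraries would run from 3.64 to 10.5 TPM with a median of 7.09, against a median of 26.0 for Ucp3, so the order of the family would be the same. They rested on 22 to 149 reads at room temperature and 65 to 466 in the cold. Of the cold libraries 4 of 5 exceeded every room temperature library, and the fifth (1.31 TPM) lay between them. The difference was +0.33 (SE 0.10, 95% interval 0.11 to 0.56, adjusted p = 0.0377), or 1.5 times in mean TPM. With a library left out the adjusted p ran from 0.0223 to 0.0827 and stayed under 0.05 only without cold replicate 1, cold replicate 4 or room temperature replicate 2. With all 19 libraries in a joint fit it was 0.0751.

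In old mice no cold effect on Ucp2 was detectable, and its mean was higher in old than in young mice at both temperatures without passing the adjusted test. The old cold libraries were at 2.39, 2.31, 2.38 and 1.78 TPM and the old room temperature libraries at 1.29, 1.60, 2.41, 2.10 and 2.18 TPM. These ranges overlapped, and the difference was +0.15 (95% interval -0.14 to 0.45, adjusted p = 0.894), or +0.0045 without the libraries low in Gm20594. Old minus young at room temperature was +0.44 (SE 0.12, 95% interval 0.18 to 0.70, adjusted p = 0.308), with 4 of 5 old libraries above all young ones. The mean TPM was 1.69 times that of young mice, and the exact two-sided permutation p of the single gene was 0.0159. In the cold the age difference was +0.26 (0.01 to 0.52, adjusted p = 0.926), with 3 of 4 old libraries above all young ones. Ucp2 thus did not reach full separation with age. Full separation upward was seen in 1.13% of genes at room temperature (0.561% downward) and in 0.967% in the cold (1.2% downward). How many genes had most but not all old libraries above the young ones was not counted. The cold effect in old minus that in young mice was -0.18 (-0.53 to 0.17, adjusted p = 0.998), or -0.37 (adjusted p = 0.259) without the libraries low in Gm20594. By mean TPM the groups ranked old cold (2.21), old room temperature (1.92), young cold (1.69) and young room temperature (1.13), and of the neighbours compared directly only young cold and young room temperature passed the test.

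Macrophages are a known site of Ucp2 expression, and their markers are given by age. The sums of 8 markers, which were not tested, were 85.9 to 150 TPM in old against 40.0 to 88.2 TPM in young mice at room temperature, and 69.0 to 177 against 33.1 to 68.0 TPM in the cold, with all 8 above 0 in every library. Apart from the alternatives that were run, none of the 8 was called in any comparison. Their median difference was +0.56 with age at room temperature, +0.80 with age in the cold and -0.12 with cold in young mice. After median centring 1 of the 8 was called higher with age in the cold, as were 29 of 16134 genes. At the threshold of 0.25, 2 were called lower with cold in young mice, where 28.1% of all genes were. The library with the highest macrophage sum of its group also had the most Ucp2 in young cold (68.0 and 2.20 TPM) and old cold mice (177 and 2.39 TPM), the second most in young room temperature mice (88.2 and 1.20 TPM) and the least in old room temperature mice (150 and 1.29 TPM). Lymphocyte markers summed to no more than 4.85 TPM in any library. The part of immune cells in the level of Ucp2 was not tested.

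**Figure D2:**
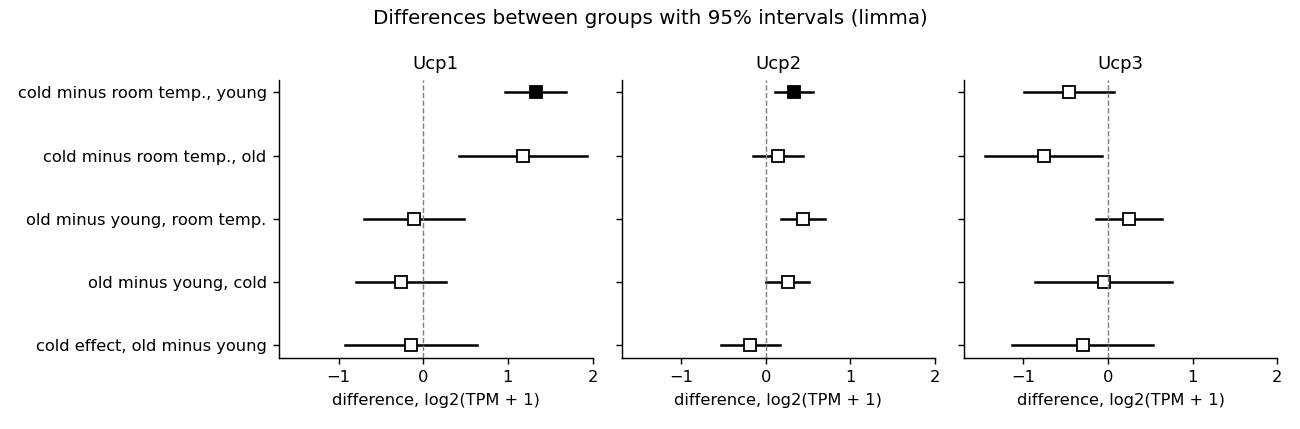
Differences between groups for the 3 genes (horizontal axes, log2(TPM + 1) scale) with their 95% intervals from limma, for cold against room temperature, old against young, and the difference between the cold effects. Filled squares mark an adjusted p under 0.05, which was reached by Ucp1 (+1.33) and Ucp2 (+0.33) with cold in young mice. Each group enters 3 of the 5 comparisons, so these are not independent.

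A ratio of 2 genes within a library does not depend on how that library was scaled, and the balance of Ucp1 against Ucp3 separated cold from room temperature at both ages. In the young cold libraries Ucp1 was 586, 297, 258, 294 and 245 times Ucp3, and at room temperature 96.0, 91.7, 88.4, 75.6 and 102 times. The groups were far apart, with log2 ratios of 7.94 to 9.19 against 6.24 to 6.67, and differed by +1.82 (exact two-sided permutation p = 0.00794, the smallest possible, adjusted p = 0.0317 over 12 ratio tests). In the old cold libraries the factors were 485, 338, 96.5 and 366, and at room temperature 65.3, 81.8, 55.6, 72.3 and 77.1. Cold replicate 3 (96.5) stood near the room temperature libraries but above all of them. The log2 difference was +1.98 (exact p = 0.00794, adjusted p = 0.0317). With each of the 9 old libraries left out in turn the adjusted p lay between 0.0536 and 0.0635 with differences of +1.71 to +2.49. The groups stayed apart in each, so every exact p was already the smallest that the libraries left can give. Without the libraries low in Gm20594 the difference was +1.41 (2 against 4 libraries, adjusted p = 0.114), where the smallest exact p is 0.0667. Ucp1 alone in old mice had the same exact two-sided permutation p (0.00794) as this ratio with all libraries. Its adjusted p came from limma over 15833 genes, that of the ratio from 12 tests, so the adjusted values cannot be compared.

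Set against Ucp2, the ratio of Ucp1 was higher and that of Ucp3 lower in young cold mice. The ratio Ucp1/Ucp2 was 2062 to 3535 in the cold and 1234 to 2452 at room temperature, ranges that overlap, with a log2 difference of +0.75 (exact p = 0.0159, adjusted p = 0.0476). Leaving out a library kept this call in 2 of 10 cases, without cold replicate 5 or room temperature replicate 5. The ratio Ucp3/Ucp2 was 6.04 to 11.4 in the cold and 14.0 to 24.8 at room temperature, without overlap, a log2 difference of -1.06 (exact p = 0.00794, adjusted p = 0.0317), which was missed only without cold replicate 1 (-0.92, adjusted p = 0.0635).
In old mice the same ratios differed by +0.94 for Ucp1/Ucp2 (adjusted p = 0.0952) and -1.04 for Ucp3/Ucp2 (adjusted p = 0.0680), and neither passed. With age, Ucp1/Ucp2 was lower by -0.86 at room temperature (adjusted p = 0.0714) and -0.67 in the cold (adjusted p = 0.0635), and Ucp1/Ucp3 by -0.37 at room temperature (adjusted p = 0.0571) and -0.20 in the cold (adjusted p = 0.786), none of which passed. Without the libraries low in Gm20594, Ucp3/Ucp2 in old mice was -0.64 with cold (adjusted p = 0.400), and with age in the cold Ucp1/Ucp2 was -1.03 (0.114) and Ucp1/Ucp3 -0.76 (0.416). Since the cold comparisons share libraries with the age comparisons, these 4 sets of values are not independent of each other.

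**Figure D3:**
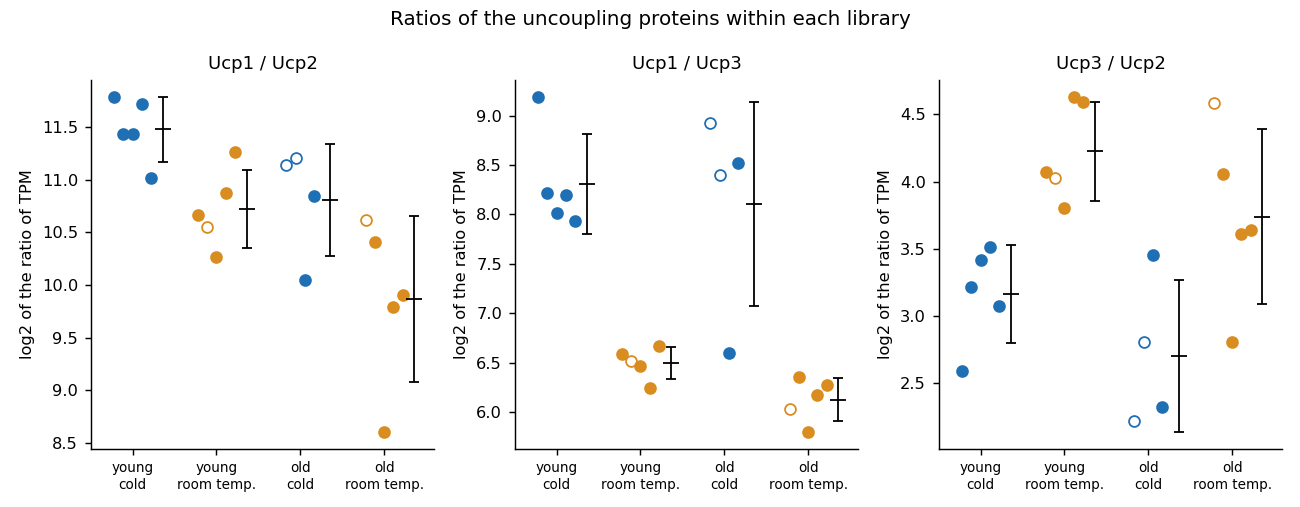
Ratios of 2 uncoupling proteins within each library (vertical axes, log2 of the ratio of TPM) by group. Points are libraries, open ones low in Gm20594, with the mean and SD beside each group. For Ucp1/Ucp3 the young cold libraries (7.94 to 9.19) lie above the young room temperature libraries (6.24 to 6.67), and the old cold libraries (6.59 to 8.92) above the old room temperature libraries (5.80 to 6.35).

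Around Ucp1, genes of 6 lists were followed, from the adrenergic signal to the heat-producing cycles that do not need it. Of the 90 genes on the lists 81 were listed by symbol, and in young mice 19 of these were called higher and 13 lower with cold, beside 9.61% and 16.3% of all genes. Those shares are over 16501 genes, many of them at low levels. When only genes averaging at least 1 TPM were fitted, 1466 of 8130 were called higher and 1953 lower, which are larger shares. The list genes were not counted in that fit, so an excess of calls in the lists is not claimed. Their median difference was +0.06 against -0.02 over all genes tested. In old mice 1 of the 81 was called. The comparisons of age gave 0 calls in the lists, as did the interaction. In a joint fit of all 19 libraries the young calls of Adrb1, Eva1a, Slc27a1 and Atp2a2 named below were lost (adjusted p from 0.0854 to 0.462).

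Of 15 adrenergic signalling genes, 4 were called higher and 5 lower in young cold mice. Adcy3, an adenylyl cyclase, rose from a mean of 9.98 to 42.1 TPM (+2.07, SE 0.25, adjusted p = 0.000367). Rgs2, a regulator of G protein signalling, rose by 1.68 (adjusted p = 0.00422). Adrb1, the β1-adrenergic receptor, fell from 3.86 to 1.49 TPM (-0.96, adjusted p = 0.000595). The β3-adrenergic receptor Adrb3, the form typical of adipocytes, had means of 18.7 TPM in the cold and 16 TPM at room temperature, which did not differ by the test (+0.28, 95% interval -0.31 to 0.87, adjusted p = 0.514). In old mice Adrb3 was at 27.4 TPM in the cold and 13.2 TPM at room temperature (+0.64, 95% interval -1.0 to 2.29, adjusted p = 0.931), and the difference was +0.014 without the libraries low in Gm20594.

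Transcriptional regulators of Ucp1 held the largest differences of these lists, with 6 of 19 called higher and 3 lower in young mice. Ppargc1a, the coactivator that drives mitochondrial biogenesis and Ucp1, was at 153 TPM in the cold and 6.46 TPM at room temperature (+4.36, SE 0.18, adjusted p = 1.81e-06). Dio2, which makes active thyroid hormone inside the cell, was at 384 and 20.8 TPM (+4.34, SE 0.39, adjusted p = 7.94e-05). Both differences were therefore larger on this scale than the +1.33 of Ucp1. The transcription factor Irf4 rose by 3.45 (adjusted p = 9.69e-05), and Cebpa, a factor of adipocyte differentiation, fell by 2.41 (adjusted p = 0.000117). In old mice Ppargc1a was at 138 TPM in the cold and 7.16 TPM at room temperature (+4.05, SE 0.33, adjusted p = 0.0105), the 1 call of the lists at that age. Dio2 was at 261 and 22.4 TPM (+3.46, SE 0.45) with an adjusted p of 0.0731, which was under 0.05 in 8 alternative fits, while without the libraries low in Gm20594 the difference was +2.59 (0.163). The call of Ppargc1a in old mice was lost without cold replicate 1 (adjusted p = 0.0624), without room temperature replicate 2 (0.0659) and without the libraries low in Gm20594 (+3.80, 0.151).

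Of 9 genes that mark brown adipocytes, 2 were called higher and 1 lower in young cold mice. Pank1, a pantothenate kinase of coenzyme A synthesis, rose from 68.3 to 124 TPM (+0.87, adjusted p = 0.000597) and Eva1a rose by 0.33 (adjusted p = 0.0162), whereas the transcription factor Zic1 fell by 0.54 (adjusted p = 0.00186) at levels near 1 TPM. Among the markers of other cells, 3 of 5 of white adipocytes were called lower in young cold mice, 1 of 5 of endothelium higher and 2 lower, 1 of 8 of lymphocytes lower and 0 of 8 of macrophages. Over all genes tested in this comparison, 9.61% were called higher and 16.3% lower. Counts this small are therefore not read as changes of a cell type.

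Of 22 genes of fatty acid supply and oxidation, 4 were called higher and 4 lower. Pdk4, the kinase that restrains pyruvate dehydrogenase, rose from 163 to 701 TPM (+2.08, adjusted p = 3e-05), and Lpl, the lipase that frees fatty acids from circulating triglyceride, from 224 to 535 TPM (+1.26, adjusted p = 5.56e-05). Lipe, the hormone-sensitive lipase, fell from 99.5 to 38.7 TPM (-1.33, adjusted p = 0.000624) and the fatty acid transporter Slc27a1 from 41.3 to 19.6 TPM (-1.0, adjusted p = 0.00316). The other 14 of the list passed in neither direction.

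Among 5 carriers of the SLC25 family related to the uncoupling proteins, 1 was called. Slc25a30 rose from 2.62 to 3.81 TPM (+0.42, adjusted p = 0.0429), a call lost with a pseudocount of 0.1 TPM (adjusted p = 0.0504), with all 19 libraries in a joint fit (0.436) and in 7 of 10 fits that left out a library (up to 0.0899). Of 11 genes of heat-producing cycles that work without Ucp1, 2 were called, both higher. Ckb, the creatine kinase of the creatine cycle, rose from 4.31 to 11 TPM (+1.25, adjusted p = 0.00814), and Atp2a2, the calcium pump SERCA2, from 33.8 to 59.5 TPM (+0.78, adjusted p = 0.00866).

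**Figure D4:**
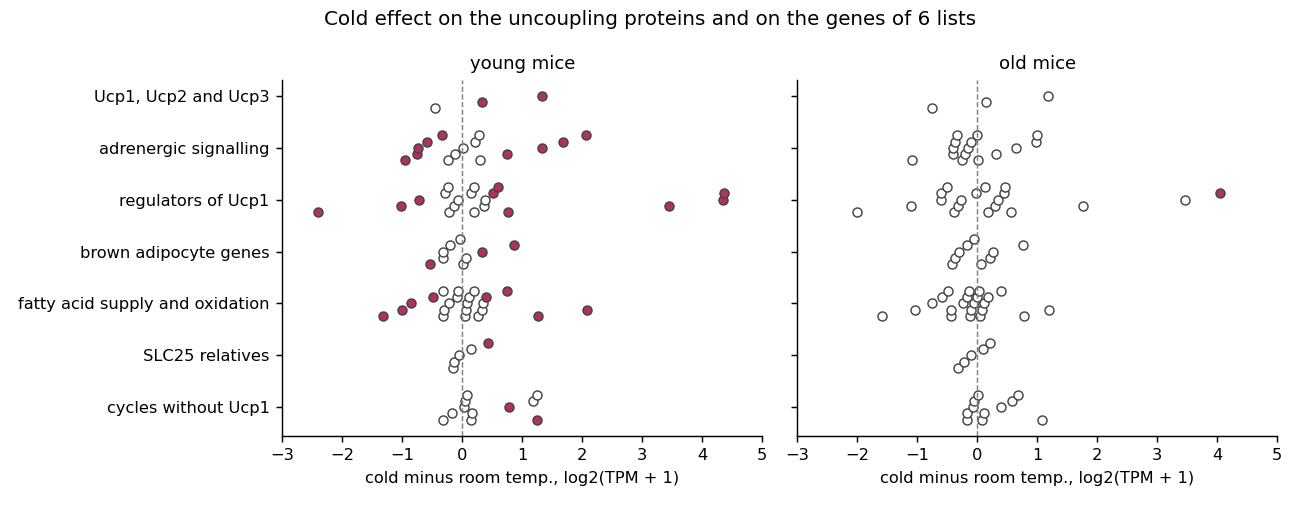
Difference between cold and room temperature (horizontal axes, log2(TPM + 1) scale) in young and in old mice for Ucp1, Ucp2 and Ucp3 and for the genes of 6 lists, with a point per gene. Filled points mark an adjusted p under 0.05. In young mice 19 of 81 list genes are filled to the right of 0 and 13 to its left, and in old mice only Ppargc1a (+4.05) is filled.

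The nearest listed genes on the chromosome were also read. On either side of Ucp1 lie Tbc1d9, 17.4 kb away, and Elmod2, 14.2 kb away. Both were higher with cold in young mice, where 9.61% of all genes were called higher. Tbc1d9 rose from 0.586 to 1.93 TPM (+0.88, adjusted p = 0.00033) and Elmod2 from 2.86 to 6.06 TPM (+0.88, adjusted p = 8.87e-05). In old mice the same differences were +0.66 (adjusted p = 0.493) and +0.58 (adjusted p = 0.728), which were called after median centring (0.0181 and 0.0376) and fell to +0.23 (0.410) and +0.22 (0.788) without the libraries low in Gm20594. Beside the pair of Ucp3 and Ucp2, C2cd3, 2.84 kb before Ucp3, was at 1.10 and 1.17 TPM (-0.05, adjusted p = 0.655), or -0.024 without the library low in Gm20594, with the sign turned by median centring (+0.06). Rab6a, 105 kb beyond Ucp2, was called higher (+0.25, adjusted p = 0.0337) and lost this call in 7 other fits and in 6 of 10 that left out a library.

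Over the 19 libraries, the genes whose log2 values followed each member most closely were sought among 8203 genes with a mean of at least 1 TPM. For Ucp1 they were Hccs (Pearson r = 0.95), which attaches haem to cytochrome c, Ankrd9 (0.94) and Mapkapk2 (0.93), a kinase activated by p38. For Ucp2 they were Cyp4b1 (0.89), a cytochrome P450, Rassf4 (0.84) and Cd163 (0.83), a scavenger receptor of macrophages, and for Ucp3 Impdh1 (0.85), an enzyme of guanine nucleotide synthesis, Acad10 (0.83) and Ptms (0.82). The libraries share their groups, so these values mix the cold and age effects with the spread inside groups. After each group's mean was subtracted the closest were other genes: Tm4sf1 (0.94), Ppil1 (0.92) and Rasgrp3 (0.92) for Ucp1, Tsku (0.82), Usp2 (0.81) and Klf15 (0.79) for Ucp2, and Slc2a1 (0.91), the glucose transporter GLUT1, Osbpl5 (0.82) and Bcl3 (0.81) for Ucp3. Inside groups the members followed each other weakly, with r of -0.12 for Ucp1 and Ucp2, 0.23 for Ucp1 and Ucp3 and 0.21 for Ucp2 and Ucp3. With Spearman's rho in place of Pearson's r, the 3 closest genes shared 1 of 3 for Ucp1, 2 of 3 for Ucp2 and 0 of 3 for Ucp3 by level, and 0, 0 and 1 of 3 inside groups. The depth of the libraries and their scaling are shared by all genes of a library and enter these correlations too.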

How the data were processed

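The authors aligned reads with Rsubread (their methods name a human reference, although the table lists mouse genes, so the build is not settled) and deposited log2 TPM values per gene and library, made with edgeR and limma (limma 3.20.9 and R 3.2.2 per the labels). Per the labels, reads of 50 bases came from rRNA-depleted stranded RNA, single-end but for the 1 library labelled paired-end. That the log2 values had 1 added to the TPM was checked on genes of few reads. No column was left unmapped. Here limma 3.58.1 in R 4.3.3 was fitted to the deposited values of the groups compared, two-sided, with Benjamini-Hochberg adjustment over all genes above 0, and genes were called at an adjusted p under 0.05. The fits were tested on simulated data. Ratios used exact two-sided permutation tests. The members and lists were chosen with earlier results of these data known. From each list the called genes with the largest differences were named, up to 4 per comparison, with Ppargc1a, Dio2 and Adrb3 always; 1 gene that the rule names is not reported here. Of the list and marker symbols 14 were not matched. Alternatives were another filter, pseudocount, scaling, prior, weights, joint fit, block, covariate and threshold, exact tests and libraries left out. The 2 genes beside each locus and the 3 most correlated with each member were also named. Python 3.11.15 with pandas 2.3.3, numpy 2.4.6 and matplotlib 3.10.9 was used for the rest.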

Additional observations from a re-analysis of the deposited data

Results flagged for a closer look

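Within groups of 4 or 5 libraries, 24 sets of values of the 3 genes and their ratios were examined for a library far from the others, and 3 were found, where chance gives about 1 in 20 sets. Ucp1 in old room temperature replicate 3 was at 9.87 on the log2(TPM + 1) scale (938 TPM), with the other 4 libraries of the group at 1853 TPM or more. Ucp2 in old cold replicate 4 was at 1.47 (1.78 TPM), below the other 3 at 2.31 to 2.39 TPM, on 53 reads. The log2 ratio of Ucp1 to Ucp3 in young cold replicate 1 was 9.19, above the other young cold libraries at 7.94 to 8.22, with Ucp3 at 7.88 TPM on 176 reads.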

How the results depend on the processing

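Of the members' results, the differences of Ucp1 and of Ucp1/Ucp3 with cold in young mice kept their calls under all alternatives run for them, while the calls of Ucp2, Ucp1/Ucp2 and Ucp3/Ucp2 in young mice and of Ucp1/Ucp3 in old mice were each lost under at least 1. For Ucp1/Ucp3 in old mice, leaving out libraries also raises the smallest exact p that can be reached. Ratios were adjusted over 12 tests and genes over all genes tested, so calls of ratios and of genes are not alike. Libraries were few, Ucp2 rested on 22 to 466 reads, and causes of the changes were not tested. Median centring moved the median difference of all genes with cold from -0.02 to 0.08 in young and from -0.03 to 0.09 in old mice, and differences are to be read relative to it. It gave 2731 genes higher and 2124 lower in young mice (1585 and 2694 without it) and 381 and 150 in old mice (3 and 1), and quantile normalization 2359 and 2711, and 375 and 305. With all 19 libraries in 1 fit the counts were 619 and 1139 in young and 166 and 335 in old mice. Replicate numbers did not pair the libraries throughout: same-numbered deviations correlated from -0.11 to 0.26 in young and 0.0047 to 0.43 in old mice, not all over 0.1. Between ages they correlated from -0.23 to 0.29 at room temperature and -0.16 to 0.29 in the cold. Old cold replicate 1 had 0.43 with its own number and at most 0.034 with another. Some features followed the numbers: all libraries low in Gm20594 were replicates 1 or 2, and replicate 5 was the deepest in every group that has it. When replicate numbers entered as a block, the young counts were 1231 and 1999 and the old ones 0 and 0, where 1195 genes had an unadjusted p under 0.05, so that of Ppargc1a was lost (0.329). The block ended the call of Ucp2 in young mice (0.33, adjusted p = 0.0645), as did all 19 libraries in 1 fit (0.33, 0.0751), and turned Ucp3 with age in the cold to 0.022. Ucp3 in young mice passed at 0.25 (-0.46). Ucp1 in old mice passed with the 1 TPM filter (1.18), median centring (1.30), array weights (1.33), all 19 libraries (1.18) and by the exact unadjusted p (1.18), as did Ucp2 with age at room temperature by the exact unadjusted p (0.44). Ucp1 with age turned to 0.047 at room temperature and 0.011 in the cold with array weights, reached -0.72 in the cold with low Gm20594 as a covariate, and its interaction turned to 0.14 with quantile normalization. Ucp3 with age in the cold became 0.041 without the libraries low in Gm20594 and 0.041 with the covariate. Without those libraries Ucp1/Ucp2 in young mice (0.71) and Ucp1/Ucp3 in old mice (1.41) were not called. C2cd3 in young mice turned to 0.057 with median centring and 0.086 with quantile normalization, and Rab6a in old mice to -0.43 without the libraries low in Gm20594 and -0.17 with the covariate. Of the 81 list genes, 22 were called lower in young mice at 0.25 (13 at 0.05). In old mice 2 were called higher at 0.25, 6 with median centring and 0 without the libraries low in Gm20594 (limma), and 3 lower at 0.25 and 4 with median centring. With age at room temperature 2 were called higher at 0.25 and 1 with median centring. Leaving out 1 library at a time, also applied to the members' levels after the data had been seen, gave 0.27 to 0.38 for Ucp2 in young mice, -0.22 to 0.11 for Ucp1 with age at room temperature, -0.32 to 0.16 for Ucp3 with age in the cold and -0.37 to 0.065 for the interaction of Ucp1. For Ucp1/Ucp2 it gave 0.64 to 0.89 with cold in young mice and -1.04 to -0.54 with age at room temperature. For Ucp3/Ucp2 in young mice it gave -1.17 to -0.92. For Ucp1/Ucp3 it gave 1.71 to 2.49 with cold in old mice, -0.43 to -0.29 with age at room temperature and -0.48 to 0.30 with age in the cold. Rab6a in old mice ran from -0.19 to 0.42.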
